A study of Mus musculus and Homo sapiens with 9 samples.

Results

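Broad peaks of thymine DNA glycosylase (TDG) at the ends of single genes numbered 397 of the 3410 TDG peaks in mouse B16 melanoma cells. They were selected on 2 measured values: a deposited peak width of at least 600 bp, and a summit (the position of highest signal in the peak) within 1 kb of an end of exactly 1 protein-coding gene. Every member lay at a different gene, so the 397 peaks stood for 397 genes. The comparison set was the 1445 narrower peaks that met the same rule on position, and both sets together made 1842 single-end peaks.

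The study used chromatin immunoprecipitation and sequencing (ChIP-seq), which maps where a protein is crosslinked to DNA. The TDG peaks came from B16 cells of the genotype Tdg HA knockin, precipitated with an antibody to the HA tag, and the p53 peaks used below came from cells of that same genotype, precipitated with an antibody to p53. The remaining 7 of the 9 samples, among them input DNA, a rabbit IgG sample, the HA antibody in WT cells, the p53 antibody in Trp53 KO cells and 3 samples of the human line NCI-H1299 with FLAG-tagged TDG, were not analysed here. Each group was 1 library, so no value below has a replicate, intervals cover counting error only, and no test over samples was possible. No sample treatment is given for the B16 groups, and whether the tagged line was 1 clone is not given in the sources used here. Without the untagged control, whether a peak depends on the tag was not tested.

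TDG is a DNA repair enzyme that removes thymine or uracil mispaired with guanine, and also removes some of the oxidised forms of methylcytosine that TET enzymes make. This last activity, followed by base excision repair, returns methylated cytosine to plain cytosine. TDG has been found at promoters rich in CpG dinucleotides, which are kept free of methylation in most cells, and it interacts with transcription factors and with the acetyltransferases p300 and CBP.

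The promoters of the widest members show the kind of DNA that these peaks covered. The sequences below are the 250 bases before the RefSeq start of the 6 widest members whose summit fell within the RefSeq promoter window (250 bases before to 50 after a start) and whose printed bases lay outside annotated genes but for at most 30 bases of the gene itself. They are RefSeq sequence of GRCm38.p6 (mm10 coordinates) and read 5′ to 3′ along the gene. Capitals mark 2 motifs on either strand, the GC box bound by SP and KLF factors (GGGCGG) and the CCAAT box bound by the factor NF-Y (CCAAT). Positions are chr10:82629588-82629837, plus strand, for Tdg itself; chr6:37870561-37870810, plus strand, for Trim24; chr6:38534611-38534860, plus strand, for Fmc1; chr1:75317638-75317887, minus strand, for Dnpep; chr17:56303087-56303336, plus strand, for Uhrf1; and chr7:19228139-19228388, plus strand, for Opa3.
Tdg: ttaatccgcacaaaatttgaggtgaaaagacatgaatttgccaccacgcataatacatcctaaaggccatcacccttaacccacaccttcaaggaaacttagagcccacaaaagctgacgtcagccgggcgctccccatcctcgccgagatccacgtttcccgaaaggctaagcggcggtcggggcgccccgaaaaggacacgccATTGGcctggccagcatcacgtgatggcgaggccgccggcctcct
Trim24: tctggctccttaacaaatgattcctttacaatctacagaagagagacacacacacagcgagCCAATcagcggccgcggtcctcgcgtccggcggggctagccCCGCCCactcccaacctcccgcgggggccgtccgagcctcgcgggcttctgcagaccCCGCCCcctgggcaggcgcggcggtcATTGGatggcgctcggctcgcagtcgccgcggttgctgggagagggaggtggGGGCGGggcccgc
Fmc1: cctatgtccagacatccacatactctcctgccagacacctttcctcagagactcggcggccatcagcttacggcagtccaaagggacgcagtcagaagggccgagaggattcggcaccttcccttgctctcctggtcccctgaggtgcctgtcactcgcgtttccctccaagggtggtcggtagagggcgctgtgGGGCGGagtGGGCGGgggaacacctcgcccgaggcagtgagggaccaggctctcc
Dnpep: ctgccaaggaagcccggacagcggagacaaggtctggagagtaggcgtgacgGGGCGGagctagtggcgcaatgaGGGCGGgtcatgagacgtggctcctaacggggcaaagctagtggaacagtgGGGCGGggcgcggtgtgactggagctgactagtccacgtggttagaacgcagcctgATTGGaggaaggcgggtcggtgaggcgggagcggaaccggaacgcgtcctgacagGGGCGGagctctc
Uhrf1: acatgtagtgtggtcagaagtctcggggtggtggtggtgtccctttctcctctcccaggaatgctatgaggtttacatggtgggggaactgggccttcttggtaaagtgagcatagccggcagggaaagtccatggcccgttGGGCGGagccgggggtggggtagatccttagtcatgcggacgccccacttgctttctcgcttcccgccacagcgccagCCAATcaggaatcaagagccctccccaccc
Opa3: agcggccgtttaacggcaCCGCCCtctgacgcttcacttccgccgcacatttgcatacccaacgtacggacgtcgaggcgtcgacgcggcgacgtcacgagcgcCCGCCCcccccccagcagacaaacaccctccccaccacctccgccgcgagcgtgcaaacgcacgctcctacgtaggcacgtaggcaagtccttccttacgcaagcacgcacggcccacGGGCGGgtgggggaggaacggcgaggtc

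Of these 6, the Opa3 stretch was the richest in CpG, with 35 CpG sites and an observed to expected CpG ratio of 1.25, where 1 is the number that the C and G content alone would give. The Tdg stretch had 19 CpG sites, a ratio of 0.970, 1 CCAAT box and no GC box. Uhrf1, which encodes the protein that guides the maintenance methyltransferase to hemimethylated DNA, had 10 CpG sites and a ratio of 0.453. GC boxes numbered 4 in Dnpep, 3 each in Trim24 and Opa3, 2 in Fmc1 and 1 in Uhrf1.

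The width rule was a threshold on a continuous range. Members ran from 600 to 1883 bp, with a median of 727 bp, and 42 of them were at least 1000 bp. The narrower peaks ran from 261 bp, the smallest width in the list, to 599 bp, with a median of 379 bp. Just inside the threshold stood Pdik1l, Mturn and Brat1 at 600 bp and Scrn1 and Tnrc6b at 601 bp. Just outside it stood Cnot3 and Scaf11 at 599 bp, Derl1 at 598 bp, Surf6 at 597 bp and Cnnm3 at 595 bp. Their fold enrichments, the authors' ratio of the summit to the local background with a constant added to each, were 4.70 (Pdik1l), 5.19 (Mturn), 7.64 (Brat1), 5.44 (Scrn1) and 7.29 (Tnrc6b) inside, and 7.55 (Cnot3), 8.07 (Scaf11), 5.83 (Derl1), 6.25 (Surf6) and 9.17 (Cnnm3) outside.

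Broad peaks made up 21.6% of the single-end peaks (exact binomial 95% interval 19.7 to 23.5%). The share of peaks of at least 600 bp was 31.5% (27.2 to 36.0%) among the 448 peaks at ends of 2 or more genes and 17.2% (15.1 to 19.6%) among the 1120 peaks away from gene ends.

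The tagged gene itself held the widest member. The Tdg peak (chr10:82629067-82630949) was 1883 bp wide, with 128 reads at the summit and a 28.9-fold enrichment, and it reached from 771 bases before to 1111 bases after the listed start. The second widest, 1680 bp, was at Fbxo42, which encodes an F-box protein of a ubiquitin ligase. It had 58 reads at the summit, a local background of 7 reads and a 6.82-fold enrichment. Dazap2 followed with 1557 bp, 40 reads and 10.7-fold. Fem1a, which encodes a substrate receptor of a cullin ubiquitin ligase, had a peak of 1540 bp with 27 reads and only 3.71-fold enrichment. The 4 widest peaks thus spanned nearly the whole range of enrichment among members, 3.13 to 28.9-fold.

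The other 11 of the 15 widest members ran from 1494 to 1201 bp and encode proteins of varied function. In order of width, Cdk9, the kinase that releases paused RNA polymerase II, had a peak of 1494 bp (8.85-fold, 33 reads), Sp4, an SP family factor, one of 1429 bp (8.72-fold, 33 reads), and Fbrs one of 1413 bp (9.11-fold). Zfpm1, a cofactor of GATA factors, had one of 1371 bp at 4.02-fold, Plekhh3 one of 1330 bp at 5.99-fold, and Trim24, a chromatin reader with a RING domain, one of 1307 bp at 8.73-fold. The KLF factor gene Klf16 followed with 1280 bp (7.81-fold), and Vdac1, which encodes the main channel of the outer mitochondrial membrane, with 1262 bp (5.38-fold). The last were the splicing factor gene Luc7l2 (1238 bp, 9.38-fold), the KLF factor gene Klf11 (1202 bp, 7.74-fold) and Fmc1 (1201 bp, 5.80-fold).

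**Figure D1:**
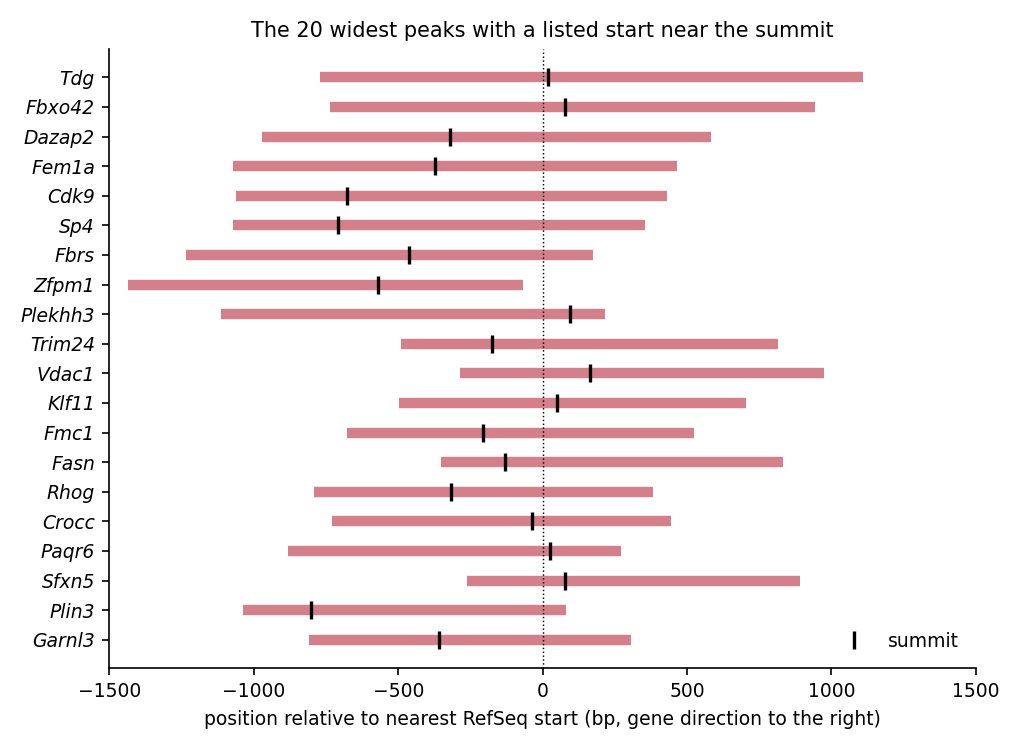
Horizontal bars give the extent of the 20 widest peaks whose gene has a RefSeq start within 1 kb of the summit, in bases from that start with the gene to the right, and black ticks mark summits. The bars of 19 of the 20 cross the listed start at 0. The Zfpm1 bar ends before it, although that peak covers the gene's end in the gene table.

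Width and strength were related but were far from the same ordering. Since the width came from the same library and contrast as the strength, these values are a description only. The median fold enrichment was 6.77 (quartiles 5.73 and 7.96) for broad and 5.73 (5.00 and 6.72) for narrower peaks. The reads recovered at the summit had medians of 28 and 23, with ranges of 16 to 128 and 15 to 57, and the median −log10 q was 11.5 against 8.19. Across the 1842 single-end peaks, Spearman's rho between width and fold enrichment was 0.32, and across the members alone it was 0.21; all points share 1 library. The broad share rose from 12.6% of 414 peaks under 5-fold to 47.8% of 205 peaks at 8-fold or more.

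**Figure D2:**
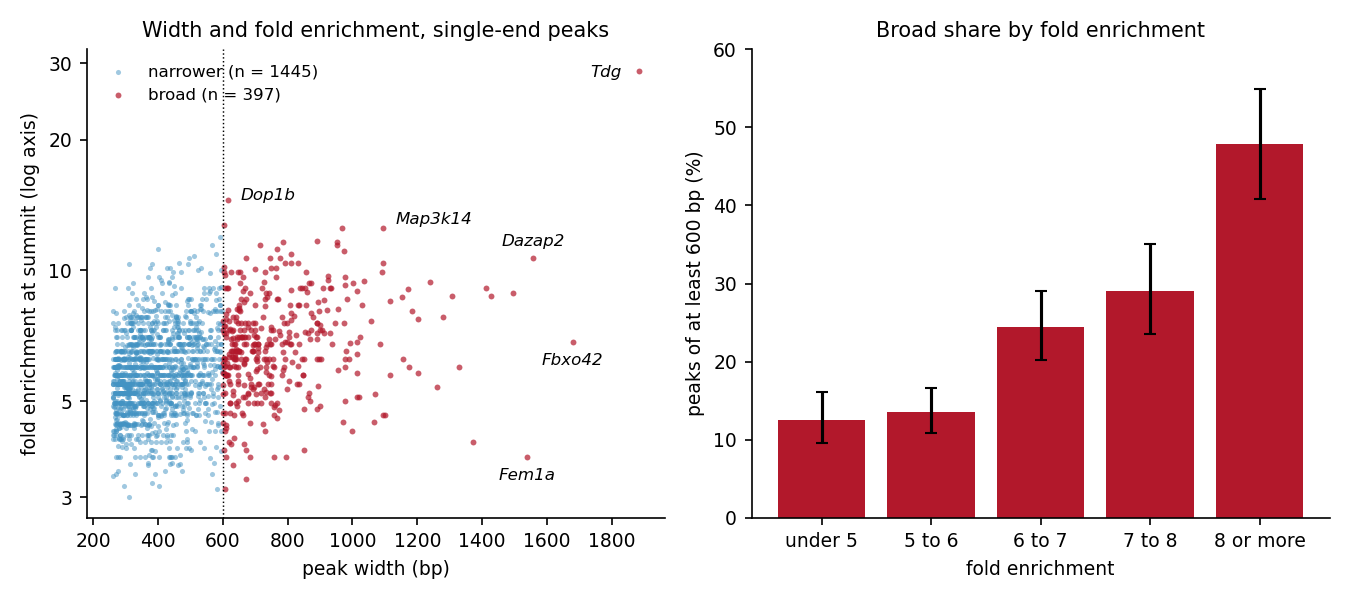
Left, width in bp against fold enrichment (log axis) for 397 broad (red) and 1445 narrower (blue) single-end peaks, with the 600 bp threshold dotted; Tdg stands alone at 28.9-fold. Right, the percentage of single-end peaks that were broad in 5 bands of fold enrichment, with exact 95% intervals, from 12.6% under 5-fold to 47.8% at 8-fold or more.

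The 10 members with the highest enrichment included narrow ones by the standard of this set. After Tdg came Dop1b, at only 616 bp (14.6-fold, 55 reads), and Avl9 at 605 bp (12.7-fold, 51 reads). Cyp46a1, which encodes the brain's cholesterol 24-hydroxylase, had 969 bp (12.5-fold, 52 reads), and Map3k14, which encodes the NF-kappaB inducing kinase NIK, 1093 bp (12.5-fold, 53 reads). P4hb, a protein disulfide isomerase gene, had 892 bp at 11.7-fold, Rmnd5a 787 bp and Skap2 951 bp at 11.6-fold each, and Pja2, a ubiquitin ligase gene, 714 bp and Pcyox1 953 bp at 11.4-fold each.

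At the other extreme, 52 members lay under 5-fold, down to Bhlhe41 at 3.13-fold. Bhlhe41 encodes a repressor of the circadian clock, and its peak was 606 bp wide with 26 reads at the summit. These 52 weak broad peaks had a median local background of 4.72 reads and a median of 23 reads at the summit. The 98 members at 8-fold or more had a median local background of 2.56 reads, the genome-wide level in this list, and a median of 36 reads at the summit. Because the local background is part of the fold enrichment, this contrast is partly set by definition. The 362 narrower peaks under 5-fold had a median local background of 3.08 reads and a median of 20 reads at the summit. Conversely, 107 narrower peaks reached 8-fold or more with a median of 33 reads at the summit and a median width of 453 bp. The strongest of these was B3gntl1 at 11.97-fold and 590 bp, and the NF-kappaB subunit gene Relb reached 11.2-fold at 401 bp.

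Members lay at the starts of genes. The RefSeq promoter table, which gives strand, had an entry for 347 of the 397 genes, and 342 of these 347 peaks (98.6%, exact 95% interval 96.7 to 99.5%) lay nearest the end where the gene begins. Narrower peaks gave nearly the same share, 1184 of 1210 (97.9%, 96.9 to 98.6%). The 5 members at the far end of the gene were at Sh2d6 (1028 bp, 830 bases from the end), Nckap5l (990 bp, 603 bases), Pld4 (694 bp, 589 bases), Ctdsp1 (677 bp, 212 bases) and Exoc3l4 (628 bp, 914 bases). No start of another gene in the promoter table lay within these 5 peaks, and the nearest ones were 11389 to 36836 bases from their summits.

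Relative to the start, members had their summit where narrower peaks had theirs. The wider reach of members on both sides follows from the width rule and is a description only. This was measured for the 330 broad and 1153 narrower peaks with a listed start within 1 kb of the summit. The median summit lay 80 bases before the start for broad peaks (quartiles −193 and 36) and 77 bases before it for narrower peaks (−163 and 43). Summits lay before the listed start in 67.9% of broad peaks (62.5 to 72.9%) and 66.5% of narrower ones (63.7 to 69.2%). The listed start is the nearest one in the promoter table, and it can lie inside the gene's span. The summits at Fbrs and Zfp78, at −462 and −455 bases from it, lay inside the gene as the gene table gives it. All these positions therefore depend on which start is used. The median position of the upstream edge was −393.5 bases for broad and −245 for narrower peaks, and that of the downstream edge was 331.5 and 159 bases after the start.

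**Figure D3:**
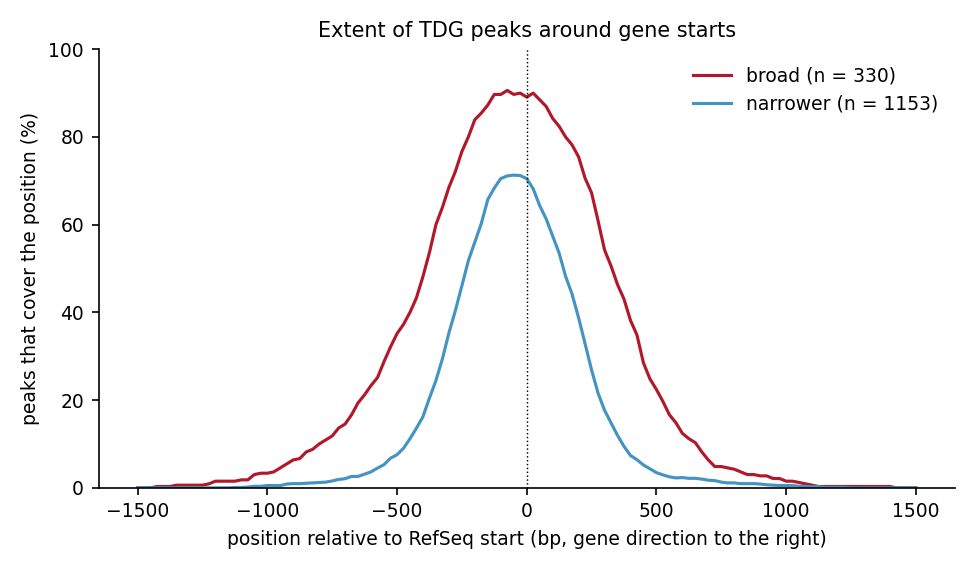
Percentage of peaks that cover each position around the RefSeq start, in bases with the gene to the right, for 330 broad (red) and 1153 narrower (blue) peaks. Both curves peak just before the start, and 500 bases before it the coverage is 35.2% for broad and 7.55% for narrower peaks, a gap that the width rule itself sets.

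Most broad peaks covered the promoter whole. The whole 300-base RefSeq window lay within the peak for 225 of 330 members (68.2%, 62.9 to 73.2%) and 226 of 1153 narrower peaks (19.6%, 17.3 to 22.01%), a comparison in which width itself has a part. Of all 397 members, 331 (83.4%, 79.3 to 86.9%) reached across the matched gene end. The outermost edges belonged to peaks that did not cover the start listed in the promoter table. The Zfpm1 peak began 1437 bases before the listed start and ended 67 before it. It did cover the gene's end in the gene table, which lies upstream of that listed start. The peak at Csf2ra, which encodes a subunit of the GM-CSF receptor, lay from 778 to 1417 bases after its listed start. Counted from the lower genome coordinate, the summit sat at a median of 48.4% of the width for broad and 49.3% for narrower peaks. This place was not turned to the direction of the gene, so it cannot show a lean to the upstream or downstream edge.

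Some members covered more than 1 start. At least 2 RefSeq starts of the same gene lay within the peak for 28 of 330 members (8.48%, 5.71 to 12.03%) against 42 of 1153 narrower peaks (3.64%, 2.64 to 4.89%). The widest of these were at Plekhh3, Vdac1, Ilvbl, Ankrd9, Zc3h7a and Pias3. Genes with 2 or more listed starts anywhere were 20.6% (16.4 to 25.4%) of the broad and 17.3% (15.1 to 19.6%) of the narrower set. A wider interval holds more starts by its size, and the share of this in the difference was not tested.

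Noncoding genes were not part of the rule. An end of a noncoding gene lay within 1 kb of the summit for 79 of 397 members (19.9%, 16.1 to 24.2%) and 247 of 1445 narrower peaks (17.1%, 15.2 to 19.1%), intervals that overlap. A long noncoding RNA started on the opposite strand within 1 kb of the gene's start for 48 of 330 members (14.5%, 10.9 to 18.8%) and 152 of 1153 narrower peaks (13.2%, 11.3 to 15.3%). The widest such pairs were Dazap2 with C330013E15Rik, Cdk9 with Gm33457 and Zfpm1 with Gm39269. Gene length did not separate the sets either, with medians of 23401 bases (95% interval of the median 20144 to 28486) for broad and 24995 bases (23051 to 27076) for narrower peaks.

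The promoters of members were CpG-rich, as were those of narrower peaks. The median observed to expected CpG ratio of the 300-base window was 0.824 (95% interval of the median 0.803 to 0.847) for broad and 0.816 (0.802 to 0.828) for narrower peaks, against 0.567 (0.557 to 0.577) over 21263 listed promoters of protein-coding genes. GC content had medians of 65.0%, 64.3% and 56.3%. With CpG-rich defined as a ratio of at least 0.6 and a GC content of at least 55%, 81.5% of broad (76.9 to 85.6%), 80.7% of narrower (78.3 to 82.9%) and 41.0% of all promoters (40.3 to 41.6%) met both. The intervals of the broad and narrower sets overlapped for both the ratio and this share. The members ranged from 0.0384 at Slc25a34, a mitochondrial carrier gene, to 1.30 at Rheb, which encodes the small GTPase that activates mTORC1.

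Motif matches were counted on either strand in the same 300-base windows. A GC box (GGGCGG) was present in 268 of 330 broad promoters (81.2%, 76.6 to 85.3%) and 929 of 1153 narrower ones (80.6%, 78.2 to 82.8%). All listed promoters gave 46.2% (45.5 to 46.9%). CpG-rich promoters with no TDG summit within 1 kb gave 78.5% (77.5 to 79.5%), an interval that overlaps that of the broad set. The broad and narrower sets were not limited to CpG-rich promoters (81.5% and 80.7% were), so they are not matched to it for any motif. The CpG-rich set and the set of all promoters were also not limited to single gene ends, and in them a gene with several listed starts could count more than once. The CCAAT box differed more. It was present in 171 of 330 broad promoters (51.8%, 46.3 to 57.3%), 499 of 1153 narrower ones (43.3%, 40.4 to 46.2%), 38.2% of all promoters (37.5 to 38.9%) and 32.1% of the 6529 CpG-rich promoters with no TDG summit (31.0 to 33.3%).

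The CCAAT share was also read by strength and by chromosome, since both moved with width. Among single-end peaks at or above their median of 5.99-fold it was 52.0% in broad (45.3 to 58.6%) and 48.2% in narrower peaks (43.9 to 52.5%), and below that median it was 51.5% (41.3 to 61.6%) and 39.0% (35.1 to 42.9%). On chromosomes 6, 11, 12 and 15, which held the most members, it was 52.3% and 41.1%, and on all others 51.3% and 44.3%. The broad share was the higher in each of these 4 subsets, with intervals that overlapped in all 4. No test was made, because promoters of 1 library are not replicates.

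Other motifs showed less. The ETS site (CCGGAAG) was present in 15.2% of broad (11.5 to 19.5%) and 19.3% of narrower promoters (17.1 to 21.7%), and the E-box (CACGTG) in 10.0% and 9.63%. CpG-rich promoters with no TDG summit gave 18.8% for the ETS site and 11.7% for the E-box, and all promoters 11.6% and 7.84%. The full cAMP response element (CRE, TGACGTCA), bound by CREB, was present in 5.15% of broad (3.03 to 8.12%), 4.60% of narrower, 3.31% of CpG-rich promoters with no TDG summit (2.89 to 3.77%) and 2.23% of all promoters. Its shorter core TGACG, which the full site contains, was present in 37.3% (32.0 to 42.7%), 38.8%, 34.3% and 23.6% of these sets. For both motifs the broad interval overlapped that of the CpG-rich set, again without matching for CpG content. A TATA box (TATAAA) was present in 3.94% of broad and 4.51% of narrower promoters against 12.6% of all promoters and 4.14% of CpG-rich ones with no TDG summit. The YY1 site (ATGGCGG) was present in 8.18% of broad, 8.15% of narrower, 9.48% of CpG-rich promoters with no TDG summit and 5.25% of all promoters. For the AP-1 site (TGANTCA) these shares were 2.12%, 3.30%, 3.25% and 6.99%, and for the ZNF143 site (ACTACAA) 3.64%, 4.68%, 3.09% and 3.60%. The widest 2 members with a CRE before the start and outside other genes were Tdg and the Polycomb gene Cbx8; the 50 bases around each are shown with the CRE in capitals, from chr10:82629681-82629730, plus strand, and chr11:119040915-119040964, minus strand.
Tdg: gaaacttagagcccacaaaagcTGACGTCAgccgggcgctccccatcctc
Cbx8: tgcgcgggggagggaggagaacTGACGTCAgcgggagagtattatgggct

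**Figure D4:**
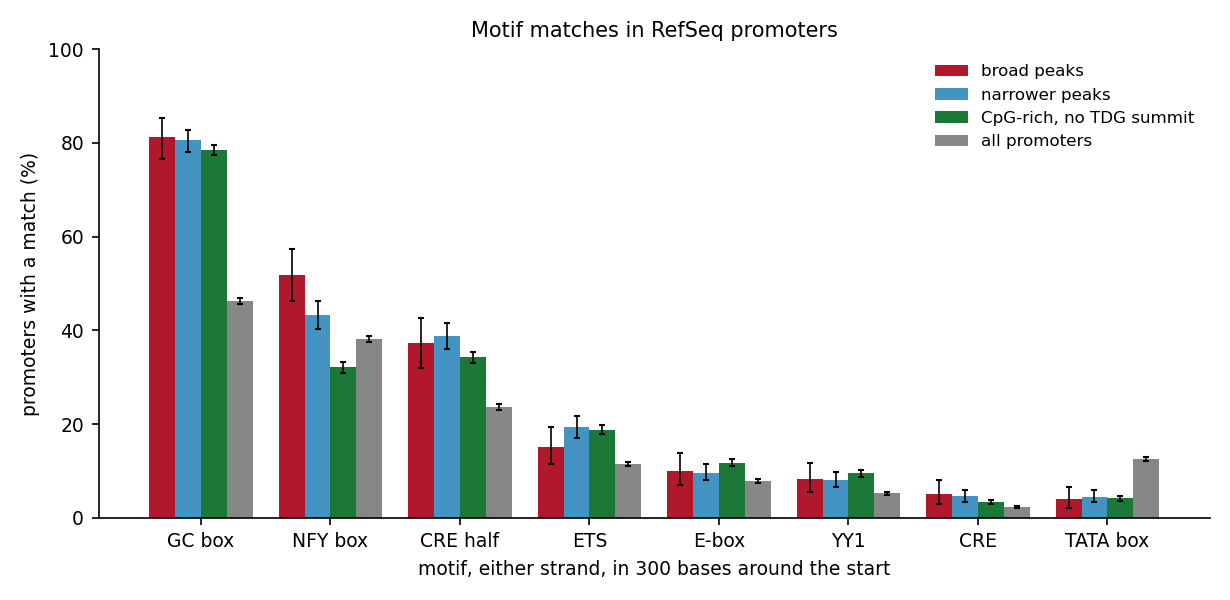
Percentage of 300-base RefSeq promoters with a match to each motif, for 330 broad peaks, 1153 narrower peaks, 6529 CpG-rich promoters with no TDG summit within 1 kb and all 21263 listed promoters; lines are exact 95% intervals. The GC box is near 80% in the first 3 sets, and the NFY box (the CCAAT box of the text) is at 51.8%, 43.3% and 32.1%. The broad and narrower sets were not limited to CpG-rich promoters, and the other sets were not limited to single gene ends.

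Members were unevenly spread over chromosomes. Chromosomes 6, 11, 12 and 15, grouped after their values were seen, held 215 of the 397 members (54.2%) and 19.1% of protein-coding genes. There, 31.4% of single-end peaks were broad (28.0 to 35.1%), against 15.7% on all other chromosomes (13.7 to 17.9%). By chromosome the share was 34.4% on 15, 33.6% on 12, 31.6% on 6 and 28.2% on 11. It was 4.65% on 13 (2 of 43 peaks, 0.568 to 15.8%), and chromosomes 14 and 18 had 0 of 15 and 0 of 16, where exact intervals reach 21.8% and 20.6%.

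The chromosomes with more single-end peaks per gene were those with more of them broad. Over the 19 chromosomes with at least 10 single-end peaks, Pearson's r was 0.86 and Spearman's rho 0.83 between peaks per 100 protein-coding genes and the broad share, given as a description since all values come from 1 library. Chromosome 16 was an exception, with 16.2 peaks per 100 genes and only 16.4% of them broad (10.0 to 24.6%). The median fold enrichment was 5.99 in both chromosome groups, and the median reads at the summit were 26 on the 4 chromosomes and 23 elsewhere. Among peaks under 5.99-fold the shares were 19.0% (14.9 to 23.7%) and 10.2% (7.88 to 13.0%). The number of copies of each chromosome in these cells was not measured here, and its part in the pattern was not tested.

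**Figure D5:**
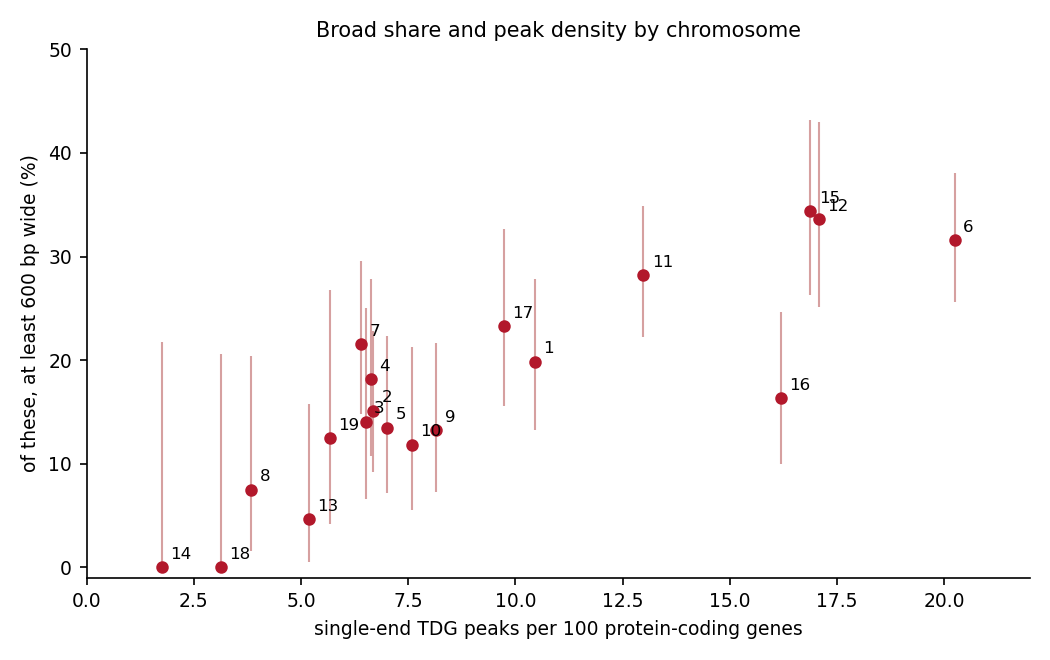
Each point is 1 chromosome with at least 10 single-end TDG peaks, plotted by those peaks per 100 protein-coding genes and by the percentage of them at least 600 bp wide, with exact 95% intervals. Chromosomes 6, 11, 12 and 15 lie at 28.2 to 34.4% and chromosomes 14 and 18 at 0.

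Further TDG peaks in the gene and around it were not used by the rule. Another TDG summit lay inside the gene for 44 of 397 members (11.1%, 8.17 to 14.6%) and for 80 of 1445 narrower peaks (5.54%, 4.41 to 6.84%). On chromosomes 6, 11, 12 and 15 the shares were 13.0% and 8.53%, and elsewhere 8.79% and 4.10%. Rarg, which encodes retinoic acid receptor gamma, and the circadian gene Per1 had 3 further summits each, and Zc3h7a and Ppp2r5c had 2. A further summit lay within 50 kb for 49.1% of members (44.1 to 54.2%) and 36.8% of narrower peaks (34.3 to 39.4%), and within 10 kb for 14.9% (11.5 to 18.7%) and 10.7% (9.11 to 12.4%). On chromosomes 6, 11, 12 and 15 the shares within 50 kb were 55.3% (48.4 to 62.1%) and 47.8% (43.2 to 52.4%). Elsewhere they were 41.8% (34.5 to 49.3%) and 31.6% (28.6 to 34.6%), so the intervals overlapped in both chromosome groups.

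Runs of members within 50 kb of each other numbered 24 and held 50 members. Only 2 runs had 3 members. On chromosome 17, Fem1a, Plin3, which encodes a lipid droplet protein, and Uhrf1 lay within 46849 bases, with widths of 1540, 1117 and 1069 bp and local backgrounds of 6, 4 and 4 reads. On chromosome 11, Dbnl, the DNA polymerase mu gene Polm and Aebp1 lay within 73780 bases, with widths of 665, 831 and 695 bp. Szrd1 and Fbxo42 on chromosome 4 lay 8270 bases apart with local backgrounds of 7.13 and 7 reads. No gene had a broad peak at both ends, and Fem1a, Akt1 and Ctdsp1 had a broad peak at one end and a narrower one at the other.

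Genes were then grouped by function, against a background of 1.81% of 21887 protein-coding genes with a broad and 6.52% with a narrower single-end peak. Among 76 genes with MAP kinase, Raf or dual-specificity phosphatase (Dusp) symbols, 6 had a broad peak (7.89%, 2.95 to 16.4%) and 8 a narrower one. They were Map3k14, Dusp11 (824 bp), Mapk9 (767 bp), which encodes the stress kinase JNK2, Map3k3 (745 bp, 10.7-fold), Dusp28 (672 bp) and Map3k12 (606 bp). Dusp11 encodes an RNA phosphatase and Dusp28 an atypical phosphatase, neither a kinase of the cascade. Without any Dusp gene, 4 of 52 had a broad peak (7.69%, 2.14 to 18.5%). Of 71 genes with Eif or Eef symbols, most of them translation factors, 4 had a broad peak (5.63%, 1.56 to 13.8%), namely Eif4b (975 bp), Eif2ak4 (809 bp), which encodes the amino acid sensing kinase GCN2, Eif5a (708 bp) and Eif5 (637 bp). Without the Eif2ak kinases this was 3 of 67 (4.48%, 0.933 to 12.5%), and both intervals included the background. The gene lists were drawn up with earlier results of these data known.

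The list of base excision repair, DNA methylation and demethylation genes gave 3 of 32 (9.38%, 1.98 to 25.02%): Tdg, whose own locus carries the tag, Uhrf1 (1069 bp, 5.19-fold) and Ogg1 (706 bp, 5.93-fold), the glycosylase gene for oxidised guanine. Immediate-early and CREB target genes gave 3 of 30 (10.0%, 2.11 to 26.5%), namely the AP-1 gene Fosl2 (835 bp), Per1 (730 bp) and Klf10 (725 bp). Both intervals start just above the background, on 3 genes each. The repair list no longer did so without Tdg (2 of 31, 6.45%, 0.791 to 21.4%), or without the methylation genes Uhrf1 and Dnmt (2 of 28, 7.14%, 0.877 to 23.5%). The NF-kappaB list gave Map3k14 and Rel (755 bp) among 31 genes, the autophagy list Wipi1 (777 bp, 10.7-fold) and Becn1 (747 bp) among 34, and the Rab and Arf list Arf2 (930 bp), Arf6 (804 bp), Rab1a (688 bp) and Rab5a (653 bp) among 84. The intervals of these 3 lists included the background.

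Several lists had 0 or 1 broad peaks. Cytosolic ribosomal protein genes had 0 broad peaks among 84 (exact upper limit 4.30%) and 11 narrower ones (13.1%). Ubiquitin-specific proteases had 0 of 56 (up to 6.38%) and 8 narrower, mitochondrial ribosomal proteins 0 of 78 (up to 4.62%) and 6 narrower, proteasome subunits 0 of 40 (up to 8.81%) and 3 narrower, and the melanocyte lineage list 0 of 26 (up to 13.2%) and 5 narrower. Each of these limits lies above the background of 1.81%, so the zeros were not distinguishable from it at these list sizes. Cell cycle genes had 1 broad peak among 40 (2.50%, 0.0633 to 13.2%), Wee1 (612 bp, 9.11-fold), which encodes an inhibitor of mitotic entry, and 8 narrower. The p53 target list had 1 among 39 (2.56%, 0.0649 to 13.5%), the ribonucleotide reductase gene Rrm2b (758 bp, 4.63-fold), and 11 narrower. The intervals of both lists included the background.

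Zinc finger (Zfp) genes had 9 of 397 (2.27%), led by Zfp78 (991 bp), solute carriers 9 of 375 (2.40%), led by Slc25a28 (978 bp), which encodes the mitochondrial iron importer mitoferrin 2, and RING finger ligases 3 of 151 (1.99%), led by Trim24. Histone-modifying enzymes had 3 of 76 (3.95%), namely the acetyltransferase gene Kat7 (900 bp), the demethylase gene Kdm3a (788 bp) and Setd5 (666 bp). Chaperones had 2 of 89, Hsp90aa1 (1022 bp) and Hspa2 (1003 bp), splicing factors 1 of 69, Hnrnpl (626 bp), and homeobox genes 1 of 73, Hoxa3 (890 bp). The intervals of these 7 lists included the background. Canonical histones had 0 of 74 (exact upper limit 4.86%), immune cell markers 0 of 16 (20.6%) and fibroblast and endothelial markers 0 of 15 (21.8%). Olfactory receptors, the odour sensors of the nasal epithelium, had 0 of 1110, and their exact upper limit of 0.332% lies below the background; they had no narrower peak either.

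Overlap with p53 peaks was rare, but the p53 list held only 126 peaks against 3410 TDG peaks. So short a list keeps any such share of TDG peaks low. Of the 397 members, 1 overlapped a p53 peak by at least 1 base (0.252%, exact 95% interval 0.00638 to 1.40%), as did 3 of 1445 narrower peaks (0.208%, 0.0428 to 0.606%), near the 0.44% of all TDG peaks that did. The member was Sp1, the gene of the founding SP factor, with a TDG peak of 934 bp (chr15:102405383-102406316) that ended at the start of the gene and p53 and TDG summits 175 bases apart. The narrower ones were at the p53 target genes Trp53inp1 (368 bp), Ccng1 (334 bp) and Btg2 (323 bp). After Sp1, the members nearest a p53 summit were Thumpd3 at 6438 bases and Txndc11 at 9409 bases.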

How the data were processed

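Used here were the ChIP-seq peak lists of 2 B16 libraries, TDG through the HA tag and p53. Per the submitters' processing notes, the build was mm10 and the tools included MACS2 and Bowtie2, besides ChIPseeker, deepTools, Picard and Trim Galore; no version is listed. Which control MACS2 used, and at which threshold, is not given in the sources used here. In the lists that the authors deposited, the fold enrichment is a ratio at the summit, and the −log10 p and −log10 q values also belong to the summit. The deposited score held 10 times the q column, rounded down, for all 3410 TDG peaks. The lowest −log10 q among them was 3.02.

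Summit reads and local background were recovered from the deposited fold and p with the MACS2 formulas. These add a constant to the summit and to the background before taking the ratio. Summit reads are given here after division by the read scale, and local backgrounds are not. Their plain ratio is therefore not the fold enrichment. The genome-wide background was 2.558 reads and the read scale 0.924, and 99.91% of summits came out whole within 0.05 reads. That share is partly built in. The scale was fitted to give whole reads, and peaks off the genome-wide background took the solution nearest a whole number. Depth is known only as these reads, since the lists give no totals.

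The ends of 21887 protein-coding genes were read from RefSeq's GRCm38.p6 gene table. Strand, starts and sequence came from the RefSeq promoter table, which matched 347 of 397 member genes and 17492 of all protein-coding genes. Because strand was given there, starts and stops of genes were separated. Shares have exact binomial and medians order-statistic 95% intervals. The scripts were tested on simulated data, and used Python 3.11.15, pandas 2.3.3, NumPy 2.4.6, SciPy 1.17.1 and Matplotlib 3.10.9.

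Members, gene lists and motifs were chosen with earlier results of these data known. Genes were named by a fixed rule: Tdg, the 15 widest members, the 10 with the highest fold enrichment, the 5 on each side of the width threshold, members overlapping a p53 peak, up to 4 per gene list by width, and genes with a broad peak at both ends. Other genes were named after their values were seen. No set test and no test over peaks was made. The alternatives were widths of 500 and 800 bp, gene ends within 500 bp and 3 kb, a −log10 q of at least 5, ends of all annotated genes, no unplaced sequence, other distances to neighbours and p53 peaks, and the 250 bases before the start. Leaving out peaks with a local background of at least 10 reads, the subsets by fold enrichment, the chromosome groups, the CpG-rich comparison and the narrower versions of 3 gene lists were added after the data were seen.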

Additional observations from a re-analysis of the deposited data

How the results depend on the processing

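Of 93 values of 11 results under 13 alternatives, 76 stayed within the interval (for the count, within 1.5 times) of the reported value. The 76 include all values without unplaced sequence, an alternative that could change nothing, since the rule used only gene ends on placed chromosomes. Limits: 1 library, no untagged control, promoter entries for only part of the genes, and 15 to 128 reads behind each single-end summit, so small differences between sets are not measurable. With widths of 500 and 800 bp the members became 633 and 131, or 34.4% and 7.11% of single-end peaks, by construction. At 800 bp the median fold enrichment was 7.29, the median distance to the gene end 166 bases and the share across the end 88.5%. With ends within 3 kb that distance was 171 bases, the share at starts 96.0% and the share across the end 72.5%; within 500 bp the shares were 99.7% and 90.8%, and no member overlapped a p53 peak (0%), since the Sp1 summit lies 562 bases from the end. With ends of all annotated genes, noncoding ends near members fell to 8.09%, by construction. A further TDG summit lay near 8.31% of members within 5 kb and 49.1% within 50 kb. The CpG ratio was 0.798 in the 250 bases before the start. Without peaks of high local background, 1 member (Hjurp, 97 summit reads, local background 11.5) was lost and no value moved beyond its interval. No paired analysis was possible because each group was 1 library.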

Other observations

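Genes for SP and KLF transcription factors, the factors that bind the GC box, were a group picked out after the members had been seen. Of 26 such genes, 6 had a broad peak (23.1%, exact 95% interval 8.97 to 43.6%), against 1.81% of all protein-coding genes, and 1 (Klf9) had a narrower one. The 6 were Sp4 (1429 bp), Klf16 (1280 bp), Klf11 (1202 bp), Sp1 (934 bp), Klf13 (809 bp) and Klf10 (725 bp). Their fold enrichments were 8.72 (Sp4), 7.81 (Klf16), 7.74 (Klf11), 9.11 (Sp1), 10.41 (Klf13) and 7.81 (Klf10), all above the median of single-end peaks. Because the family was chosen on these values, no test was made of it.

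Of the 8710 CpG-rich promoters in the RefSeq table, 25.04% (24.1 to 26.0%) had a TDG summit of any width within 1 kb of the start, and of the 12553 other promoters 4.69% (4.33 to 5.08%) did. Among the members with the least CpG-rich promoter windows, Laptm4a had a ratio of 0.0924 and Tmem176a one of 0.0791, with peaks of 871 and 665 bp. The Laptm4a peak lay from 207 to 1077 bases after the start, outside the window that gave the ratio. The Tmem176a peak lay from −708 to −44 bases and covered only part of its window.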
